A study of Mus musculus with 2 samples.

Results

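The genes that encode the main splicing factors were examined in mouse megakaryocytes, the cells that shed platelets into the blood. They were chosen by symbol, as genes named Srsf, Sf3a or Sf3b with a number, Hnrnp or Snrp, together with U2af1, U2af2 and Zrsr2, and without pseudogenes marked -ps. This gave 56 of the 43346 Ensembl genes in the deposited tables, and 3 pseudogenes marked -ps were left out. The 56 comprised 11 SR genes, 20 hnRNP genes, 9 genes of the SF3a and SF3b complexes, the 3 genes U2af1, U2af2 and Zrsr2, 8 genes of the Sm ring, 4 genes of proteins particular to the U1 or U2 particle, and Snrpert, which the annotation lists as a processed pseudogene. No measured value entered the choice.

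The study held 2 libraries of polyadenylated RNA from primary cells of embryonic day 14.5, with males and females pooled. The labels place them in 1 group, as replicates 1 and 2, and name a common biosample and donor, so the spread between them may be technical. Strain, genotype and treatment are not stated in the sources used here. With no second group, the levels below are a description, and the only comparison is between the libraries. Wherever a pair of values follows a gene, the first is from replicate 1 and the second from replicate 2.

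Splicing removes introns from pre-mRNA in the spliceosome, which is built anew on each intron from small nuclear ribonucleoproteins (snRNPs). Each snRNP of the Sm class holds an RNA, a ring of Sm proteins and proteins of its own. U1 marks the start of the intron, the U2AF pair binds its end, and U2 sits on the branch point with the SF3a and SF3b complexes. SR proteins mostly promote the use of exons they bind, and hnRNP proteins coat nascent RNA and often oppose it. Many genes of both families keep their own level in check through an exon or intron that brings a premature stop codon and sends the mRNA to nonsense-mediated decay. In people, mutations of SF3B1, SRSF2, U2AF1 and ZRSR2 recur in myelodysplastic disease, in which megakaryocytes are often abnormal.

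Replicate 1 held 42099216 expected counts (estimated fragments per gene) and replicate 2 held 2275922, an 18.5-fold difference. Where a gene has 0 counts, as many as 3 could have been missed, which is 0.0713 CPM (counts scaled to the same total in each library) in replicate 1 and 1.32 CPM in replicate 2. Levels are given as TPM, which are divided by transcript length, scaled to the same total in each library and comparable between genes. The 14 megakaryocyte markers all had a mean above 5 TPM and summed to 19868 and 30979.7 TPM. Erythroid markers, led by the adult globins, summed to 9446 and 15788 TPM. Of the 10, 4 were higher in replicate 2 by TPM and 6 lower, and the higher sum came from Hba-a1 (4480 and 12715 TPM). Macrophage markers (10 genes) summed to 874 and 229 TPM, with Timd4 at 0 in both, and granulocyte markers (10 genes) to 861 and 150.2 TPM, with Ly6g at 0 in both. In each of these lists 7 genes had a mean of at least 100 counts, and all 7 were at least 2-fold lower in replicate 2. Hepatocyte markers summed to 149 and 79.7 TPM, nearly all of it from Dlk1 (92.5 and 69.7 TPM) and Trf (54.7 and 7.90 TPM). Alb, Apoa2, Ttr and Serpina1a were at 0 in both. The part of these other cells in the values below was not tested, and in bulk RNA fewer cells of a type and less RNA per cell cannot be told apart.

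Splicing factor RNA was present from nearly the whole set. A mean of at least 1 TPM was reached by 55 of the 56 genes, beside 22.7% of all Ensembl genes and 42.5% of protein-coding genes. At least 1 TPM in both libraries was reached by 45, a mean of at least 5 TPM by 50 (28.4% of protein-coding genes) and a mean of at least 100 TPM by 18. The median gene of the set stood at 75.0 TPM in replicate 1 and 28.3 TPM in replicate 2, against 12.3 and 8.19 TPM for protein-coding genes with a mean of at least 1 TPM. Summed over the set, the level was 7572 and 10012 TPM (8792 ± 1725, SD, n = 2). The sum was higher in replicate 2 although 40 genes were lower there by TPM and only 15 higher. Shares over all genes are not given here for the counts of 45, 18, 40 and 15. By the ratio of counts described below, genes in general also went lower more often. Among those with a mean of at least 100 counts, 35.6% were at least 2-fold lower in replicate 2 and 13.4% higher. The 5 genes with the highest mean, Snrpa, Srsf2, Sf3a2, Sf3b4 and Hnrnpab, took 34.5% of the summed TPM in replicate 1 and 63.2% in replicate 2.

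**Figure D1:**
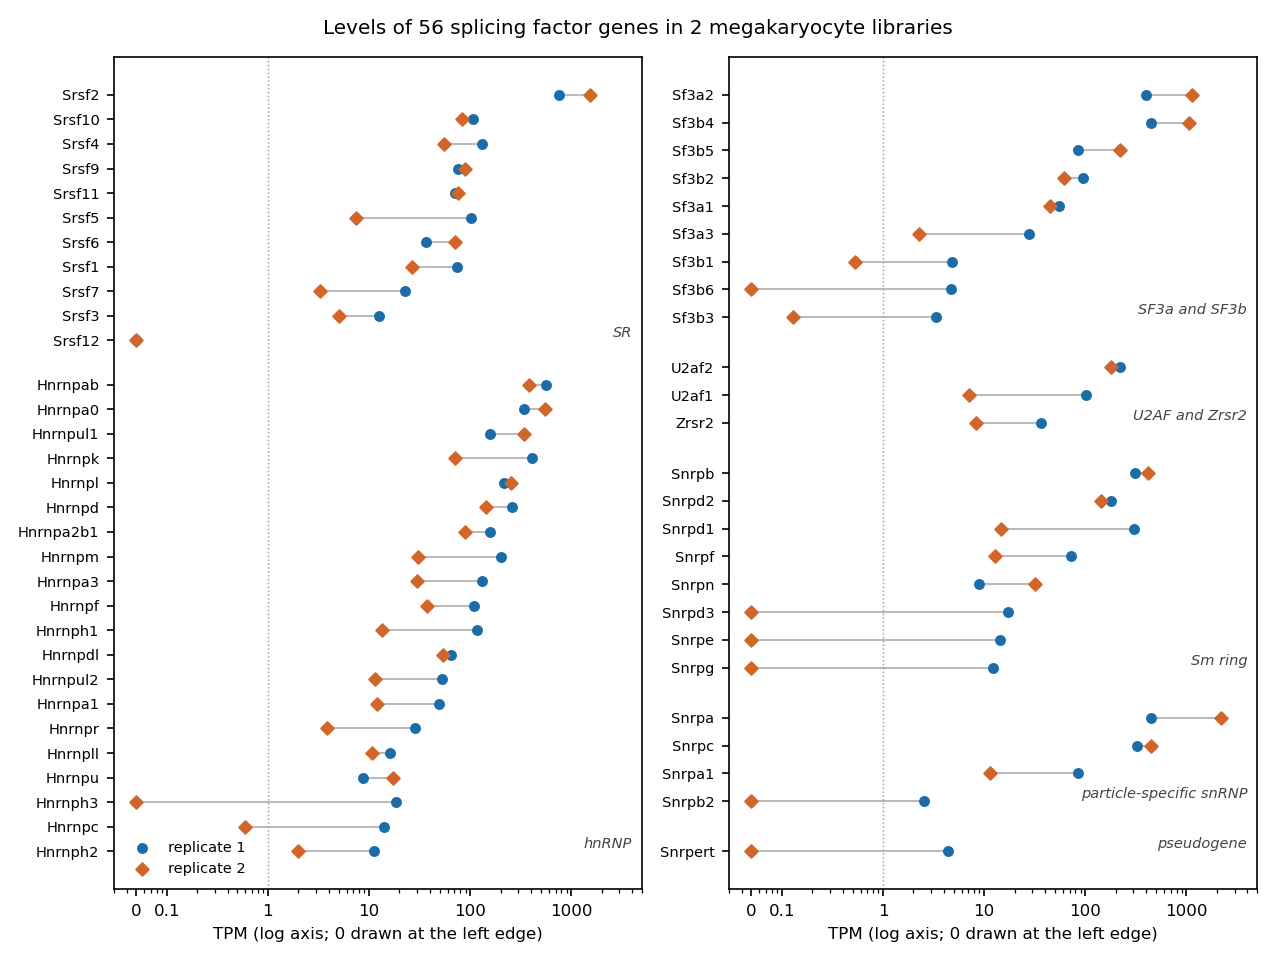
TPM of each of the 56 genes on a log axis, in replicate 1 (circles) and replicate 2 (diamonds), joined by a line and sorted by mean within each family; values of 0 are drawn at the left edge and the dotted line marks 1 TPM. Srsf2, Sf3a2, Sf3b4 and Snrpa stand highest in replicate 2, from 1067 to 2187 TPM, while 8 genes stand at 0 there, among them Srsf12, which is at 0 in both libraries.

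The sum over SR genes was 1387 and 1960.3 TPM, and a single gene carried most of it. Srsf2, which binds exonic enhancers and helps to recruit the early spliceosome, stood at 757 and 1544 TPM (36920 and 3441 counts, mean 1151 ± 556, SD, n = 2). Srsf10, an atypical SR protein that turns into a repressor when dephosphorylated, stood at 105.6 and 83.4 TPM (2424 and 82 counts). Srsf4 had 130.4 and 55.4 TPM (10852 and 217 counts). Srsf2 was higher in replicate 2, and Srsf10 and Srsf4 lower.

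A further 5 SR genes had means between 50 and 100 TPM. Srsf9 stood at 76.1 and 89.1 TPM, and Srsf11 at 71.25 and 75.9 TPM. Srsf6 had 36.5 and 70.2 TPM. Srsf1, the founding SR protein, had 74.0 and 26.65 TPM, and Srsf5 had 101 and 7.40 TPM. Srsf9 and Srsf6 were thus higher in replicate 2, and Srsf1 and Srsf5 lower, while for Srsf11 the ratio of counts was 0.90 with an interval that spans 1 (0.71 to 1.13). Srsf7 (22.6 and 3.28 TPM) and Srsf3 (12.6 and 5.04 TPM), shuttling SR proteins that hand mRNA to the export receptor, were the lowest SR genes with counts. Srsf12, a relative of Srsf10, had 0 counts in both libraries.

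The hnRNP genes formed the largest family, all 20 with a mean of at least 5 TPM, with sums of 2925 and 2049 TPM. Hnrnpab, an RNA-binding protein with roles in transcription and mRNA transport, led with 565 and 384 TPM (29254 and 923 counts, mean 474.5 ± 128, SD, n = 2). Hnrnpa0, an A-type hnRNP that binds AU-rich RNA, followed with 339 and 548 TPM (33791 and 2577 counts). Hnrnpul1, a relative of the scaffold protein hnRNP U, had 156 and 338 TPM (20106 and 2059 counts). Of these 3 genes, Hnrnpab was lower in replicate 2 and the other two higher.

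Of the remaining hnRNP genes, Hnrnpk, a poly(C)-binding protein, stood at 408 and 70.9 TPM. Hnrnpl, which binds CA-rich RNA, had 216 and 252 TPM, and its relative Hnrnpll had 16.2 and 10.7 TPM. Hnrnpd, which directs AU-rich mRNAs to decay, had 259 and 145 TPM, and Hnrnpdl 65.3 and 53.9 TPM. By TPM only Hnrnpl of these 5 was higher in replicate 2. For Hnrnpdl the ratio of counts was 1.11 with an interval that spans 1 (0.96 to 1.28). The interval of Hnrnpll also spans 1 (ratio 0.764, 0.571 to 1.001).

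The classical A and B proteins of hnRNP particles were lower in replicate 2 throughout. Hnrnpa2b1 had 158 and 88.1 TPM, Hnrnpa3 129.6 and 30.02 TPM, and Hnrnpa1, a widely used splicing silencer, 49.0 and 11.9 TPM. Hnrnpc, whose tetramer packages nascent RNA, had 14.0 and 0.60 TPM (1483 and 3 counts). The G-run binding proteins Hnrnpf (108 and 37.4 TPM), Hnrnph1 (118 and 13.3 TPM), Hnrnph2 (11.3 and 1.99 TPM, 745 and 8 counts) and Hnrnph3 (18.4 TPM and 0, 947 and 0 counts) were lower in replicate 2 as well, and Hnrnph2 had the lowest mean of the family. Also lower were Hnrnpm (203 and 30.3 TPM), Hnrnpul2 (53.2 and 11.6 TPM) and Hnrnpr (28.8 and 3.82 TPM). Hnrnpu, which binds chromatin as well as RNA, was higher, with 8.70 and 17.1 TPM.

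Among the proteins that define the 3′ splice site, U2af2, the large U2AF subunit that reads the polypyrimidine tract, stood at 221 and 180.4 TPM (17731 and 684 counts). U2af1, the small subunit that reads the AG dinucleotide, had 102 and 7.09 TPM (3100 and 10 counts). Zrsr2, which serves minor-class introns, had 36.3 and 8.36 TPM (1873 and 20 counts). All 3 were lower in replicate 2, and U2af2 exceeded its partner U2af1 in both libraries.

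The subunits of SF3a and SF3b, although they act in common complexes, differed widely in level. Sf3a2, an SF3a subunit, had 398 and 1143 TPM (32378 and 4385 counts, mean 770.5 ± 527, SD, n = 2). Sf3b4, an SF3b subunit with RNA recognition motifs, had 446 and 1067 TPM (31087 and 3505 counts, mean 756.5 ± 439.7). Sf3b5, a small SF3b subunit, had 84.0 and 222 TPM (12203 and 1523 counts). These 3 genes were higher in replicate 2, and by TPM every other gene of the family was lower. For Sf3a1 the ratio of counts was 0.906 with an interval that spans 1 (0.818 to 1.002).

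Sf3b2 stood at 94.2 and 61.1 TPM, Sf3a1 at 54.7 and 44.6 TPM, and Sf3a3 at 27.9 and 2.25 TPM. Sf3b1, the large subunit that clamps the branch helix, had 4.77 and 0.53 TPM (1128 and 6 counts). Sf3b3, a scaffold subunit, had 3.36 and 0.13 TPM (548 and 1 counts), the lowest mean of the family. Sf3b6, which contacts the branch adenosine, had 4.66 TPM and 0 (179 and 0 counts). The largest subunits, Sf3b1 and Sf3b3, were thus among the 3 lowest in both libraries.

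The genes of proteins particular to a snRNP had sums of 864 and 2649 TPM. Snrpa, whose protein binds a stem loop of U1 RNA, had 449 and 2187 TPM (16975 and 3345 counts, mean 1318 ± 1229, SD, n = 2) and had the highest mean of all 56 genes. Snrpc, whose protein steadies pairing with the 5′ splice site, had 327 and 451 TPM (9450 and 606 counts). On the U2 side, Snrpa1 had 85.5 and 11.3 TPM (2807 and 17 counts) and its partner Snrpb2, which binds U2 RNA with it, 2.55 TPM and 0 (161 and 0 counts). Both U1 genes were therefore higher, and both U2 genes lower, in replicate 2.

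The Sm ring, which surrounds the RNA of each Sm-class snRNP, is made of equal numbers of its subunits, yet the genes differed widely. Snrpb, which encodes SmB, stood at 308 and 414 TPM (12164 and 760 counts), Snrpd2 at 179 and 142 TPM (3362 and 123 counts) and Snrpd1 at 302 and 14.8 TPM (8302 and 19 counts). Snrpf had 72.6 and 12.8 TPM, and Snrpn, an imprinted gene for an SmB relative best known from the brain, 8.83 and 32.2 TPM (672 and 115 counts). Snrpd3 had 17.35 TPM (1968 counts), Snrpe 14.3 TPM (255 counts) and Snrpg 12.4 TPM (104 counts) in replicate 1, and all 3 had 0 counts in replicate 2. Snrpg had the lowest mean of the ring. The pseudogene Snrpert had 4.43 TPM from 25 counts in replicate 1 and 0 counts in replicate 2, which is not detectably different, since 0 counts there allow a level above that of replicate 1.

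**Figure D2:**
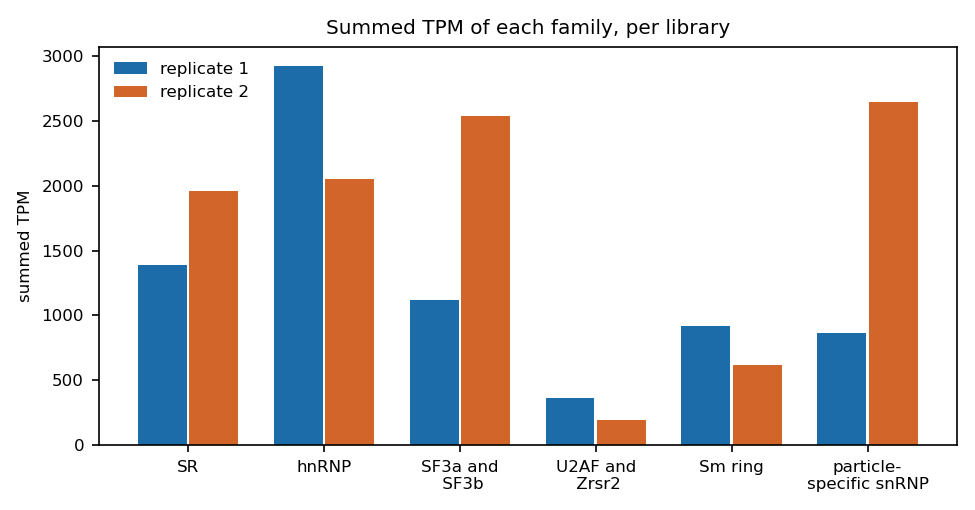
Summed TPM of the genes of each family in replicate 1 (left bars) and replicate 2 (right bars), 1 bar a library with no error bar. SR genes, SF3a and SF3b genes and particle-specific snRNP genes sum higher in replicate 2, and hnRNP genes, U2AF and Zrsr2, and the Sm ring sum lower.

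The libraries were then set against each other by the ratio of counts, replicate 2 over replicate 1, scaled by TMM factors. Each side is a single library, so the ratios have no replicate check and compare these libraries only. A mean of at least 100 counts was reached by 51 of the 56 genes, and Srsf12, Sf3b6, Snrpb2, Snrpg and Snrpert fell short. Of the 51, 8 were at least 2-fold higher in replicate 2 (15.7%), beside 13.4% of the 8194 genes at that count, and 26 were at least 2-fold lower (51.0%), beside 35.6%. The remaining 17 lay between. The median log2 ratio was -1.09 for the splicing factors and -0.38 for all genes. The ratio of 31 of the 51 was below that of the median gene.

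Because replicate 1 holds far more fragments, it decides which genes reach the minimum on the mean count. With a mean of at least 50 CPM, which weights the libraries equally, 28 splicing factors were left, of which 7 were higher and 7 lower, beside 22.5% and 17.1% of 2576 genes. The share of higher among all calls on splicing factors was 23.5% at the count minimum and 50% at this minimum, and their median log2 ratio was -0.01, beside 0.28 for all genes. With total counts in place of TMM, 5 were higher and 27 lower, beside 7.31% and 43.5% of genes, and the all-gene median moved from -0.38 to -0.73. Under DESeq2 size factors these counts were 9 and 25, beside 16.3% and 33.0%. Requiring only 1 count in each library gave 8 higher and 23 lower of 48, beside 20.9% and 29.1%.

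The 8 higher genes were Snrpa, Snrpn, Sf3a2, Sf3b5, Sf3b4, Hnrnpul1, Hnrnpu and Srsf2. Snrpa had the largest ratio, 4.63 (exact 95% interval 4.46 to 4.81, counting error only). The ratio of Snrpn was 4.03 (3.27 to 4.91) and that of Sf3a2 3.185 (3.09 to 3.29). Sf3b5 followed with 2.935 (2.78 to 3.10) and Sf3b4 with 2.65 (2.56 to 2.75). These 5 ratios, the largest, stayed above 1 under each alternative run that kept the gene. That of Sf3a2 fell under 2-fold when the GC trend described below was removed (log2 ratio 0.93 in place of 1.67). They came from genes with over 100 counts in replicate 2.

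The smallest ratios rested on few counts in replicate 2. Snrpd1 was 18.6-fold lower there (ratio 0.0538, interval 0.0324 to 0.0841) and U2af1 13.2-fold lower (ratio 0.0759, interval 0.0363 to 0.140). Sf3a3, with 1842 and 7 counts, was 11.2-fold lower (ratio 0.0894, interval 0.0359 to 0.184). For Hnrnpc, at 3 counts, the ratio was 0.0476 (interval 0.0098 to 0.139), and for Sf3b3, at 1 count, 0.0429 (interval 0.00108 to 0.240). Of the 51 genes, 14 had 1 to 19 counts in replicate 2.

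Genes with counts in replicate 1 and none in replicate 2 numbered 7, and 3 of the 51 genes past the count minimum were among them. Over protein-coding genes at that minimum, 4.27% had 0 counts in replicate 2. Of 9123 protein-coding genes with a mean of at least 1 TPM, 548 had 0 counts there. Against a floor of 3 counts, Snrpd3 was at least 27.9-fold lower in replicate 2, Hnrnph3 at least 13.4-fold and Snrpe at least 3.61-fold. Below the count minimum, Sf3b6 was at least 2.54-fold, Snrpb2 at least 2.28-fold and Snrpg at least 1.48-fold lower. Apart from Hnrnph3, the genes with these bounds encode core proteins of the U2 particle or the Sm ring, and the remaining gene of the 7 is the pseudogene Snrpert. Whether genes at 0 gather in these complexes was not tested. Other genes of these complexes went the other way. By TPM, 3 SF3a and SF3b genes were higher in replicate 2 and 6 lower, and 2 Sm ring genes were higher and 6 lower. Shares over all genes are not given here for direction by TPM. By the ratio of counts, 35.6% of all genes past the count minimum were at least 2-fold lower and 13.4% higher.

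By family, the counts below stand beside 13.4% higher and 35.6% lower among all genes past the minimum, and differences between families were not tested. Among SR genes, 1 of 10 was higher and 5 lower, with a median log2 ratio of -0.71, or -0.05 after the GC trend described below was removed. For hnRNP genes 2 of 20 were higher and 11 lower (median -1.67), and for SF3a and SF3b 3 of 8 were higher and 3 lower (median -0.31). The Sm ring had 1 of 7 higher and 4 lower, with a median of -2.34, or -1.85 with its genes at 0 set to 3 counts. Of U2af1, U2af2 and Zrsr2, 0 were higher and 2 lower, and of the 3 particle-specific genes 1 was higher and 1 lower. Without the GC trend the medians were -1.01 for hnRNP genes, -0.10 for SF3a and SF3b and -1.44 for the Sm ring.

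GC content moved with the ratio. Across the 51 genes, Spearman's rho between the GC content of a gene's transcripts and its log2 ratio was 0.44 (Pearson's r 0.43), beside 0.32 (0.30) over 8171 genes, and for length it was 0.17 beside 0.15. All points share the same 2 libraries, and genes are not independent replicates. Under 45% GC, 14 of 18 splicing factors were at least 2-fold lower and 1 higher, while 53.3% of all genes of that class were lower and 9.05% higher. At 55% GC and above, 0 of 6 were lower and 3 higher, beside 18.5% and 20.3% of all genes. The splicing factors had a median GC content of 46.3%, and genes past the count minimum 52.0%.

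After the trend with GC content was removed over all genes, 9 splicing factors were higher and 24 lower, beside 13.8% and 33.7% of all genes. Their median log2 ratio became -0.53, beside -0.34, and 27 of the 51 had a ratio below that of the median gene. Snrpn at 45.1% GC and Sf3b5 at 45.5% GC were higher in replicate 2 though their GC content was low. U2af1, at 51.9% GC, was lower. The part of GC content in the ratios was not tested beyond this correction.

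The SF3 genes at both ends of this range show the difference in base composition. The first 60 coding bases of Sf3a2, the gene of highest GC content among the 51 (59.6% over its transcripts, ratio 3.185), are 60% GC. Those of Sf3b1, the gene of lowest GC content among them (40.6%, ratio 0.125), are 46.7% GC. They are printed here 5′ to 3′ from the GENCODE M21 transcripts on GRCm38, with the start codon in capitals, Sf3a2 on the plus strand (start codon at chr10:80801233-80801235) and Sf3b1 on the minus strand (chr1:55027364-55027366).
Sf3a2-203: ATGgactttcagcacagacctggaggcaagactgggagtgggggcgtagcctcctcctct
Sf3b1-201: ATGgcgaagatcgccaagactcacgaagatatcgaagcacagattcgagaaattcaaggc

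**Figure D3:**
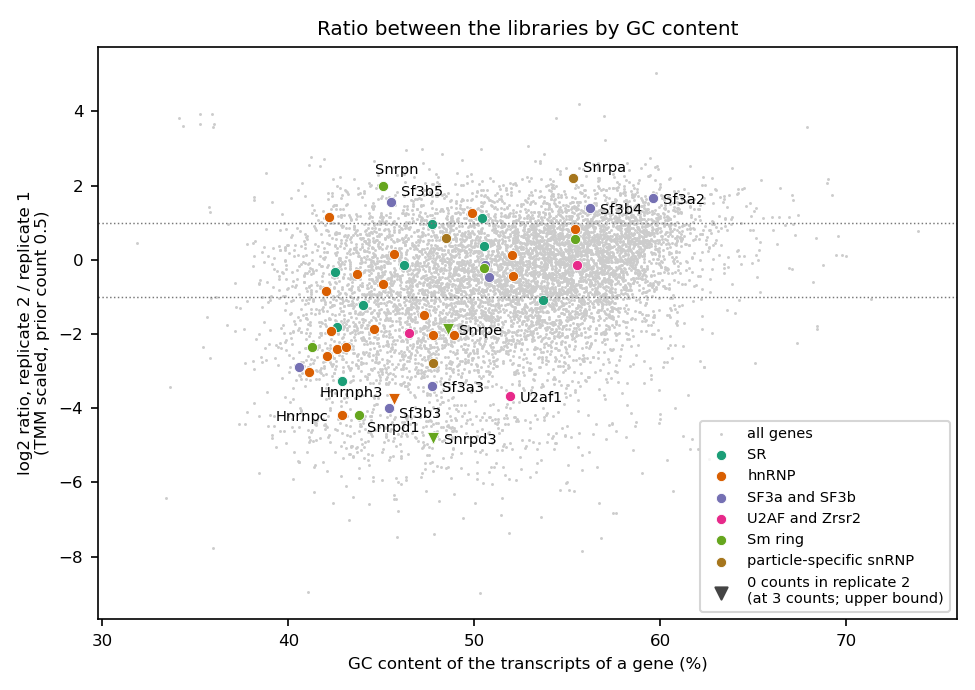
Log2 ratio of replicate 2 to replicate 1 (TMM scaled, prior count of 0.5) against GC content in percent for all genes with a mean of at least 100 counts (grey) and the 51 splicing factors (coloured by family); triangles are genes with 0 counts in replicate 2, drawn at 3 counts, and dotted lines mark 2-fold. Splicing factors under 45% GC lie mostly below the lower line, and 3 of the 6 at 55% and above lie above the upper one.

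The transcript tables showed which forms of each gene were present. Transcripts annotated as nonsense-mediated decay, retained intron or processed transcript are called non-coding here. The 55 protein-coding genes had 286 annotated transcripts, or 5.20 a gene, of which 47.9% were non-coding, against 3.64 a gene and 37.7% over all protein-coding genes. Non-coding transcripts took 14.8% of the splicing factor TPM in replicate 1 and 9.73% in replicate 2 (12.3% ± 3.59, SD, n = 2), against 21% and 23.9% over all protein-coding genes. By expected counts the share was 8.21% and 6.81%, against 11.2% and 12.6%. Nonsense-mediated decay transcripts alone took 7.38% and 6.03%, against 2.25% and 3.12%, and retained introns 3.63% and 2.70%, against 12.6% and 11.9%. A second background was the 9373 protein-coding genes with an annotated non-coding transcript. There decay transcripts took 3.69% and 5.08%, retained introns 20.7% and 19.3%, and all non-coding transcripts 34.4% and 38.8%. Against it the decay share of the splicing factors was only slightly higher in replicate 2. Retained introns thus took less of the TPM than in protein-coding genes in general, in both libraries. The decay share rested largely on Snrpb. Without that gene, a choice made after seeing the data, it was 4.32% and 2.04%, above the share of all protein-coding genes in replicate 1 and below it in replicate 2, and the non-coding share as a whole was 12% and 5.88%.

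Families differed here too. In SF3a and SF3b genes non-coding transcripts took 0.141% of TPM in replicate 1 and 0 in replicate 2, although 14 of their 25 transcripts are of that kind. For SR genes the share was 21.7% and 12.3%, and for hnRNP genes 16.1% and 14.8%. In the Sm ring it was 27.6% and 66.5%, nearly all of it from Snrpb. Over 50% of TPM lay in non-coding transcripts in both libraries for 8 of 46 genes (17.4%), beside 16.0% of 6001 protein-coding genes with a mean of at least 5 TPM. These were Hnrnpdl, Hnrnph1, Hnrnpll, Snrpa1, Snrpb, Srsf10, Srsf11 and Srsf5.

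**Figure D4:**
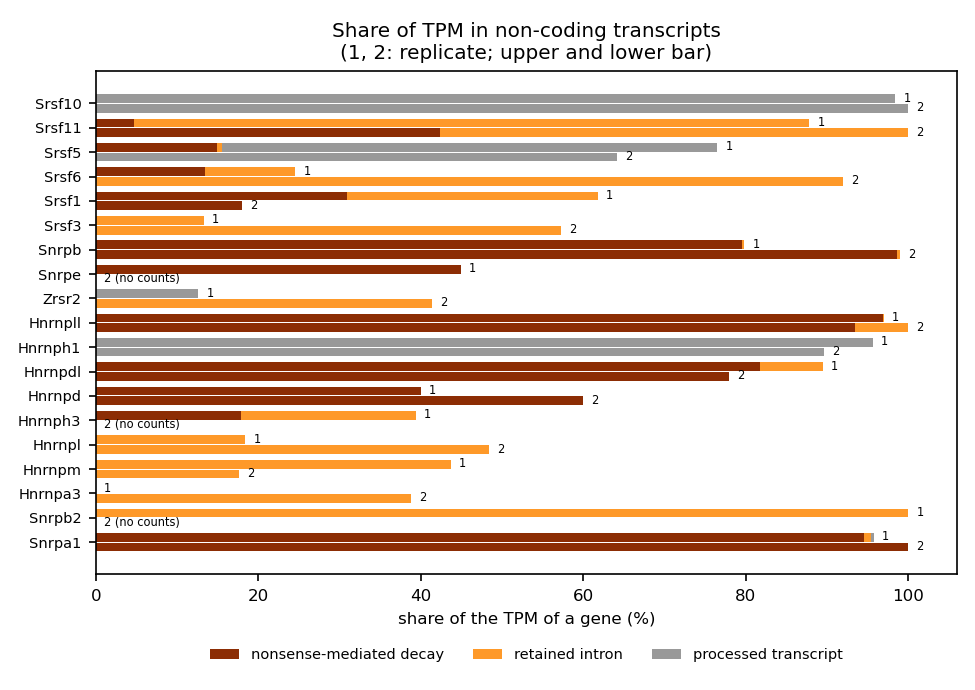
Share of a gene's TPM, in percent, in transcripts annotated as nonsense-mediated decay, retained intron or processed transcript, for the 19 genes with over 25% in either library; the upper bar of each pair is replicate 1 and the lower replicate 2. Snrpb, Hnrnpll and Snrpa1 stand over 79% in decay transcripts in both libraries, and Srsf6 rises from 24.6% to 92.0% through a retained intron.

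In 3 genes a single decay transcript took most of the TPM in both libraries. Snrpb-203 took 79.5% of Snrpb TPM in replicate 1 and 98.6% in replicate 2 (9596 and 747 counts), and the coding Snrpb-201 took 20.2% and 0.985% (2508 and 8 counts). The SmB protein is known to act on an alternative exon in its own pre-mRNA. Snrpb-203 contains a cassette exon of 124 bases (chr2:130176629-130176752, GRCm38, minus strand) that Snrpb-201 lacks, and its stop codon lies in that exon, 596 bases before the last exon junction. Snrpb-203 also ends 152 bases earlier than Snrpb-201, and the files hold no counts per exon or junction, so the reads behind the assignment cannot be told apart.

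Hnrnpll-203 took 96.9% and 93.5% of Hnrnpll TPM (1605 and 48 counts). It carries an exon of 83 bases (chr17:80044940-80045022, minus strand) that the coding Hnrnpll-205 (0 in both libraries) lacks, and its stop codon in that exon lies 807 bases before the last junction. Hnrnpll-203 also ends 350 bases earlier than Hnrnpll-205. Snrpa1-201 took 94.6% and 100% of Snrpa1 TPM (2601 and 17 counts). It lacks an exon of 80 bases (chr7:66070119-66070198, plus strand) present in the coding Snrpa1-206, which took 4.21% and 0, and also 206 bases at the 5′ end of that form. Its stop codon lies 164 bases before the last junction. In each pair the decay transcript was the main form in both libraries.

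Hnrnpd-205, another decay transcript, took 40.0% of Hnrnpd TPM in replicate 1 and 60% in replicate 2 (3937 and 154 counts). The coding Hnrnpd-201 took 28.1% and 29.4% (5311 and 146 counts), so that by counts it led in replicate 1. The stop codon of Hnrnpd-205 lies 513 bases before its last junction, and its closest coding form by structure, Hnrnpd-203, took 8.28% and 0.

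The last 45 coding bases of these 4 decay transcripts, each followed by those of its coding counterpart, show that the reading frame ends in different sequence. They are printed 5′ to 3′ from the GENCODE M21 transcripts, with the stop codon in capitals. The stop codons of Snrpb-203, Hnrnpll-203, Snrpa1-201 and Hnrnpd-205 lie at chr2:130176695-130176697, chr17:80044976-80044978, chr7:66070593-66070595 and chr5:99966156-99966158 on GRCm38, all on the minus strand but that of Snrpa1-201.
Snrpb-203: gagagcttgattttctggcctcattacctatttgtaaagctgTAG
Snrpb-201: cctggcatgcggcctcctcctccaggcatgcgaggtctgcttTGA
Hnrnpll-203: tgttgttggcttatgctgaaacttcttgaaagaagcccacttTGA
Hnrnpll-205: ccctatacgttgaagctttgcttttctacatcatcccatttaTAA
Snrpa1-201: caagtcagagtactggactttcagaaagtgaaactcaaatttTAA
Snrpa1-206: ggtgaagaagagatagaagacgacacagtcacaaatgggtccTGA
Hnrnpd-205: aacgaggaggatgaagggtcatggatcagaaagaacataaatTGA
Hnrnpd-203: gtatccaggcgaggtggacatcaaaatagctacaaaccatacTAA

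For some SR and hnRNP genes a short transcript annotated without a reading frame had the highest TPM in replicate 1. Srsf10-210, of 677 bases and 2 exons, took 97.0% and 100% of Srsf10 TPM (2177 and 82 counts). Hnrnph1-208, of 582 bases, took 54.0% and 89.6% of Hnrnph1 TPM but only 37.7% and 64.2% of its counts (1117 and 10). Srsf11-205, a retained intron form of 437 bases, took 57.5% and 19.6% (486 and 8 counts). Short transcripts weigh more in TPM than in counts, and for Srsf11 the non-coding share was 87.8% of TPM and 52.9% of counts in replicate 1.

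The dominant transcript, that with the highest TPM of its gene, was the same in both libraries for 28 of 38 genes with several transcripts and a mean of at least 5 TPM (73.7%), beside 66.2% of 4695 genes. With posterior mean TPM it was 27 of 41, beside 63.9%. With at least 100 counts in each library it was 20 of 22 (90.9%), beside 72.3%, and the exceptions were Srsf6 and Hnrnpdl. Most differences therefore lay in genes with few counts.

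For Srsf6 the difference rested on more counts. The coding Srsf6-203 took 75.4% of Srsf6 TPM in replicate 1 and 7.98% in replicate 2 (3663 and 35 counts). Srsf6-204, which keeps an intron of 1283 bases (chr2:162932143-162933425, plus strand), took 11.1% and 92.0% (441 and 330 counts). Summed over its transcripts Srsf6 had a ratio of 1.95 (interval 1.75 to 2.17), so the gene was higher in replicate 2 while its coding form was lower. Srsf6-204 lacks 1913 bases of the 3′ end of Srsf6-203, and which of these differences moved the assignment was not tested.

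For Hnrnpdl both leading forms were decay transcripts. Hnrnpdl-205 took 42.2% and 14.3% of TPM (1449 and 19 counts), and Hnrnpdl-201 took 39.5% and 63.6% (2039 and 127 counts). The latter ends its reading frame at the same stop codon as the coding Hnrnpdl-202, at chr5:100036125-100036127 on the minus strand, but has an added exon of 105 bases behind it (and differs at both ends), which places the stop 126 bases before the last junction rather than 21. By counts, Hnrnpdl-201 led in both libraries.

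In the other 8 genes with different dominant transcripts, replicate 2 held 3 to 78 counts. By TPM, Srsf1 passed from the retained intron form Srsf1-206 (30.9% and 0) and the decay form Srsf1-204 (30.9% and 17.0%) to the coding Srsf1-202 (28.6% and 80.2%, 891 and 42 counts). These forms lay close in replicate 1, and by counts Srsf1-202 led in both libraries (Srsf1-206 had 457 and 0, Srsf1-204 681 and 6). Srsf11 passed from Srsf11-205 to the decay form Srsf11-212 (0 and 24.9%, 9 counts in replicate 2), and Srsf3 from Srsf3-202 (86.7% and 42.7%) to the retained intron form Srsf3-203 (9.23% and 57.3%, 34 and 4 counts). Srsf5 passed from Srsf5-211 (34.2% and 0) to Srsf5-210 (21.9% and 46.1%, 307 and 2 counts). Zrsr2 passed from Zrsr2-204 (43.6% and 23.7%) to Zrsr2-205 (0 and 41.4%, 4 counts in replicate 2). By counts, the coding forms Zrsr2-202 (1555 and 12) and Srsf3-202 (1039 and 10) led their genes in both libraries. Counts of Srsf5 were highest for coding forms, Srsf5-201 in replicate 1 (605) and Srsf5-205 in replicate 2 (7). Those of Srsf11 were highest for the coding Srsf11-204 in replicate 1 (697) and the retained intron form Srsf11-203 in replicate 2 (34). The remaining genes of the 8 differed between coding forms. Hnrnpr passed from Hnrnpr-204 (54.7% and 0) to Hnrnpr-202 (36.5% and 100%, 1049 and 18 counts), Hnrnph2 from Hnrnph2-201 (84.2% and 0) to Hnrnph2-205 (0 and 100%, 8 counts in replicate 2) and Hnrnpc from Hnrnpc-201 (100% and 26.7%) to Hnrnpc-202 (0 and 73.3%) on 3 counts.

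Near-identical copies can share reads with some of these genes. Matching of coding sequences found 21 genes with at least 1 other gene at 95% identity over 50% of the length, 69 copies in all, with 24 for Hnrnpa3, 9 for Hnrnpa1 and 6 for Hnrnpf. Gm7935, the copy of Sf3b4, had 6.16 and 191 TPM, and Gm13092, the copy of Snrpf, 0 and 24.3 TPM. The copies of Hnrnpa3 summed to 38.9 and 4.40 TPM and those of Snrpc to 3.16 and 13.1 TPM. Values of these genes are uncertain by the reads divided between copies. The Snrpf and Gm13092 levels moved in opposite directions between the libraries, but on only 17 and 5 counts in replicate 2.

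Exons of 19 of the genes overlap a gene on the other strand, and whether counting used strand is not stated in the sources used here. Sf3a2 shares 429 exon bases with Plekhj1 (103 and 79.4 TPM), Srsf2 460 with Mettl23 and 288 with Mfsd11, and Hnrnpu 804 with Cox20 (16.5 TPM and 0). On the same strand, Hnrnpm shares 1169 bases with March2 (119.8 and 80.2 TPM), and Snrpn 589 with Gm38393 (8.13 and 3.85 TPM) and 216 with Snurf, which was listed at 0 in both libraries. Plekhj1, Cox20 and March2 were lower in replicate 2.

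The wider splicing machinery was read from lists of other genes. Of 61 further spliceosome genes, 59 reached a mean of 1 TPM. The call counts of this list and the next ones stand beside the same 13.4% higher and 35.6% lower among all genes. Among 55 past the count minimum, 3 were at least 2-fold higher in replicate 2 and 33 lower, with a median log2 ratio of -1.50. Sf1, which recognises the branch point before U2 does, led with 988 and 2771 TPM. Snrnp70, the third U1 protein, had 463 and 97.9 TPM, and Puf60, a U2AF-like factor, 124 and 409 TPM, while Lsm5 was lowest with 0.14 TPM and 0. Snrnp70 was thus lower in replicate 2, where its U1 partners Snrpa and Snrpc were higher.

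Of 22 kinases, cofactors and carriers of SR proteins, 19 reached a mean of 1 TPM, and of 18 past the count minimum 3 were higher and 5 lower (median -0.37, or 0.06 without the GC trend). Srrm1 (200.3 and 485 TPM), Scaf1 (211 and 398 TPM) and Srrm2 (112 and 366 TPM) led, and the SR kinase Srpk2 was lowest at 0.20 TPM and 0. Of 41 other RNA-binding regulators, 29 reached 1 TPM, and of 27 past the count minimum 5 were higher and 10 lower (median -0.23, or 0.09 without the GC trend). They were led by the poly(C)-binding Pcbp1 (948 and 2301 TPM), the polypyrimidine tract repressor Ptbp1 (819 and 1854 TPM) and Ewsr1 (806 and 217 TPM). Mbnl3, Elavl4 and Khdrbs2 had 0 counts in both libraries, and Ptbp2, the neuronal relative of Ptbp1, had 0.33 TPM and 0.

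Of 10 factors of nonsense-mediated decay, 9 reached a mean of 1 TPM, and of 10 past the count minimum 0 were higher and 4 lower (median -0.59). Upf1, its central helicase, had 70.7 and 100.7 TPM, Smg5 38.4 and 79.5 TPM and Smg9 54.7 and 42.7 TPM. Of 5 genes of the exon junction complex, which marks spliced junctions, 4 reached 1 TPM, led by Eif4a3 (106.8 and 40.6 TPM), Rbm8a (31.8 and 3.29 TPM) and Casc3 (10.2 and 13.6 TPM), while Magohb had 0 counts in both. Of its 3 genes past the count minimum, 0 were higher and 2 lower (median -1.25). Of 12 genes that assemble the Sm ring, 8 reached 1 TPM, and 2 of 7 were higher and 1 lower (median -0.59). Smn1, the gene of the survival motor neuron protein, had 95.1 and 71.4 TPM, Wdr77 38 and 80.9 TPM and the arginine methyltransferase Prmt5 44.8 and 46.5 TPM, with Gemin6 lowest at 0.26 TPM and 0. By counts, Prmt5 (1795 and 35, ratio 0.459) was the gene of this list called lower, although its TPM hardly differed.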

How the data were processed

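RNA of 2 libraries of 1 group was measured. Per the labels' protocols, both were polyadenylated RNA. For each the authors deposited tables of genes and transcripts on mm10 with the GENCODE M4 annotation, per the file lists deposited beside them. For the aligner, the quantifier and the strand setting, nothing is stated in the sources used here. The deposited expected counts are estimated fragments, of which 3.53% (replicate 1) and 1.43% (replicate 2) lay over 0.005 from a whole number. TPM, per the file headers, is given by the authors as an estimate of highest likelihood and as a posterior mean. The deposited FPKM and the deposited score of each estimate's spread and bounds were not used, and the authors' percent of a gene's TPM in each transcript was recomputed from TPM.

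GENCODE M21 on GRCm38, the assembly of mm10, gave symbols, biotypes, coordinates and GC content for 42462 genes (98.0%). Rows that name no Ensembl gene (26345, with 15 and 0 counts) were left out of totals. Rounded expected counts were passed to edgeR 4.0.16 (TMM factors 1.13 and 0.887, over Ensembl genes with a count) and DESeq2 1.42.0 (size factors 5.07 and 0.197), in R 4.3.3. These tools supplied scaling factors only, and with 1 group no test was made. Calls are ratios of at least 2-fold among genes with a mean of at least 100 counts. Medians of ratios added a prior count of 0.5 in replicate 2 and a depth-scaled equivalent in replicate 1, and calls and ratios of single genes added none. Intervals are exact 95% Clopper-Pearson intervals, conditional on the summed count. They and the floor of 3 counts cover counting error only, since the sources name no molecular identifiers. The GC trend was a lowess curve (fraction 0.3, statsmodels 0.14.6). Copies were found with blastn 2.17.0. The scripts were tested on simulated data and used Python 3.11.15, numpy 2.4.6, pandas 2.3.3, scipy 1.17.1 and matplotlib 3.10.9.

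The splicing factors were chosen by symbol, with no measured value used. Earlier results of these data were known when the genes, gene lists and alternatives were chosen. Every gene is named with its level. Counts are given, as fixed by rule, for the 3 highest and the lowest of each family by mean TPM, genes with 0 counts in a library, and the 5 largest and 5 smallest ratios above 0. Of other lists the 3 highest and the lowest are named, except for a gene that is not reported here. Transcripts are named for genes whose dominant form differed and for those with over 25% of TPM in a non-coding transcript in both libraries. Alternatives were total counts, DESeq2 size factors, a mean of at least 50 CPM, 1 count in each library, removal of the GC trend, posterior mean TPM, other pseudocounts, a rescaled TPM, counts in place of TPM, and each library alone. Leaving out Snrpb from the decay share was added after seeing the data.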

Additional observations from a re-analysis of the deposited data

How the results depend on the processing

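No paired analysis was possible because the labels give a single group. Of 55 recomputed summary values, 43 stayed within the limits set for them and 12 moved. All 45 recomputed ratios of the 10 genes with the largest or smallest ratios kept their direction. This says little, because the genes were picked by these same ratios. A changed minimum leaves the ratio of a gene as it is, and changed scaling shifts all ratios nearly alike. Only removal of the GC trend moved genes separately, and it took the log2 ratio of Sf3a2 from 1.67 to 0.93. Genes at least 2-fold higher numbered 5 under total counts in place of 8, and genes at least 2-fold lower 7 with a mean of at least 50 CPM in place of 26. The median log2 ratio was -1.43 under total counts, -0.96 under DESeq2 size factors, -0.01 with the minimum of 50 CPM, -0.74 with 1 count in each library and -0.53 without the GC trend, in place of -1.09. Rescaling TPM to protein-coding genes without ribosomal protein and mitochondrial genes raised the sums to 11060 TPM for the set, 2101 TPM for SR genes, 3213 TPM for hnRNP genes and 990.3 TPM for the Sm ring. By counts, non-coding transcripts took 7.51% in place of 12.3%. For these shifts the cause was not tested, beyond fewer genes being left by the stricter minimum.

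With each library alone, the genes at 1 TPM numbered 45 to 55 and the non-coding share ran from 9.73% to 14.8%. Sums ran from 7572 to 10012 TPM for the set, 1387 to 1960.3 for SR, 2049 to 2925 for hnRNP, 1117 to 2541 for SF3a and SF3b, 195.8 to 360.1 for U2AF and Zrsr2, 616 to 915 for the Sm ring and 864 to 2649 for the particle-specific genes.

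Depth limits the comparison: replicate 2 held under 20 counts for 14 of the 51 genes and 0 for 3, so transcript shares of these genes there rest on few fragments.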
